A study of Mus musculus with 6 samples.

Results

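The Schlafen genes (from the German for "to sleep") are a family of mammalian genes, most of which can be induced by interferon, and several of which restrain cell division, viral protein synthesis or the use of transfer RNAs. The mouse members studied here were Slfn1, Slfn2, Slfn3, Slfn4, Slfn5, Slfn8 and Slfn9, and they were found on the liver arrays as every probe, other than control spots, whose RefSeq accession belongs to one of these 7 genes. They had 9 probes, out of 55681 probes and 37074 genes or unnamed features on the array. The RNA came from livers of male mice that carry human NPC1L1, a cholesterol transporter, in hepatocytes under the APOE promoter (L1-Tg mice, a single line labelled B6;D2-Tg(APOE-NPC1L1)20Lqyu/J, hemizygous, backcrossed for at least 8 generations to C57BL/6J), and of wild-type littermates (WT mice) that lack the transgene. All mice of both groups were fed a control-fat diet (CFD), and the methods give an age of 6 to 12 weeks for the mice of the study. There were 3 arrays per genotype, each of RNA pooled from 2 or 3 mice, and the comparison asked how the livers of the genotypes differed before any high-fat feeding.

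Schlafen proteins fall into short, intermediate and long classes. The short Slfn1 and Slfn2 were described in T cells, where Slfn2 keeps resting T cells and monocytes quiescent, and the intermediate Slfn3 and Slfn4 are best known from gut epithelium and from myeloid cells. The long Slfn5, Slfn8 and Slfn9 carry an additional helicase-like part, and Slfn8 and Slfn9 are close relatives. Schlafen genes are expressed in many leukocytes, which the liver also holds, and in whole-tissue RNA fewer cells of a type and less RNA per cell cannot be told apart.

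All 7 genes lie in 1 cluster on chromosome 11, in the order Slfn5, Slfn9, Slfn8, Slfn2, Slfn1, Slfn4 and Slfn3. In RefSeq coordinates of build GRCm38.p6 Slfn5 spans chr11:82951349-82964850, Slfn9 chr11:82974316-82991830, Slfn8 chr11:83002125-83020810 and Slfn2 chr11:83065112-83070678. Slfn1 spans chr11:83116820-83122670, Slfn4 chr11:83175172-83190216 and Slfn3 chr11:83191330-83215154. Their promoters were searched because interferon acts on many genes through a short repeat of GAAA, the core of the interferon-stimulated response element (ISRE). The core was spelled GAAANNGAAA, on both strands, in windows from 250 bases before to 50 bases after each RefSeq start, and it was found in the windows of Slfn5, Slfn8 and Slfn9 and in none of those of Slfn1, Slfn2, Slfn3 and Slfn4. Of all 32841 RefSeq windows of that length, 3.44% held a match. The gamma-activated site, spelled TTCNNNGAA, matched in no Schlafen window and in 8.3% of all windows. The stretches below are shown because Slfn8 and Slfn9, whose array values differed, shared the same core letters. They are from RefSeq, GRCm38.p6, written 5′ to 3′ on the strand of the gene with the ISRE core in capitals, for Slfn8 (chr11:83020811-83020910, minus strand) and Slfn9 (chr11:82991831-82991930, minus strand) the 100 bases before the start (the first of Slfn8) and for Slfn5 (chr11:82951937-82951966, plus strand) 30 bases around its match.
Slfn8: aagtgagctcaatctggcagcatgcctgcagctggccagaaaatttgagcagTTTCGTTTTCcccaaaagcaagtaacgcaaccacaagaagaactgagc
Slfn9: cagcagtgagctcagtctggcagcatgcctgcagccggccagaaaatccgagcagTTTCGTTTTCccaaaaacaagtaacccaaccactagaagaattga
Slfn5: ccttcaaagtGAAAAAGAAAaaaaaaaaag
RefSeq gives Slfn8 a further start, downstream of the first. The match lay 48 to 39 bases before the first start of Slfn8 and 136 to 127 before the other. It lay 45 to 36 bases before the start in Slfn9 and 155 to 146 before the start used for Slfn5. The Slfn5 window, chr11:82951852-82952151, lies inside the span given for Slfn5 above, so its match is downstream of the first base of the gene. In Slfn8 and Slfn9 the match reads GAAAACGAAA on the strand opposite to the gene. Over the 250 bases before these starts, the first for Slfn8, the Slfn8 and Slfn9 promoters were identical at 206 of 258 aligned positions (79.8%), whereas the other 20 pairs of Schlafen promoters were identical at 40.7% to 49.1%. A match describes letters and not the binding of a factor. Only the exact spellings were searched, so a window without a match may still hold a variant of the element.

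Intensities are given as log2 of the scanner software's processed signal minus the 75th percentile of the same array, so that 0 is the level of that percentile and a difference of 1 is a doubling. Probes differ in how brightly they hybridise, and levels were therefore compared between arrays and not ranked between genes. The sums given for marker lists add probes of unequal brightness and can follow the brightest of them. A gene was tested by limma where all 3 arrays of either genotype marked its probe as well above background, which held for 22308 genes in all and for 4 of the 7 Schlafen genes. Slfn2, Slfn8 and Slfn9 were well above background on all 6 arrays, Slfn5 entered only through the L1-Tg arrays, and Slfn1, Slfn3 and Slfn4 were not tested. From 53.1% to 59.2% of the spots were well above background on an array, none was saturated, and WT replicate 1 had the lowest share. WT arrays lay in row 1 and L1-Tg arrays in row 2 of 1 slide that was scanned once, so row and genotype cannot be told apart.

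Slfn2, which holds T cells and monocytes in quiescence, stood at -0.67, -0.94 and -0.25 in L1-Tg replicates 1 to 3 and at -1.92, -1.54 and -1.08 in WT replicates 1 to 3 on the log2 scale. The lowest L1-Tg array lay just above the highest WT array, so the groups did not overlap, although both spread widely. The means were -0.62 ± 0.34 for L1-Tg and -1.51 ± 0.42 for WT (SD, n = 3 each). The difference was 0.90 on the log2 scale (SE 0.26, 95% interval 0.27 to 1.52), or 1.86-fold. The unadjusted limma p was 0.0124 and the Benjamini-Hochberg adjusted limma p over all genes tested was 0.470, so Slfn2 did not pass the test. In processed signal before any scaling, L1-Tg replicate 2 (155) was below WT replicate 3 (160.1), and the separation of the groups ended.

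Slfn8, a long Schlafen gene, had the smallest p of the family. Its brighter probe stood at -0.54, -0.97 and -0.45 in the L1-Tg arrays and at -1.45, -1.51 and -1.40 in the WT arrays. The 3 WT arrays were nearly level and all L1-Tg arrays were above them. The means were -0.65 ± 0.28 and -1.46 ± 0.05 (SD, n = 3 each), a difference of 0.80 on the log2 scale (SE 0.15, 95% interval 0.43 to 1.17), or 1.74-fold. The unadjusted limma p was 0.0016, which ranked 132nd of 22308 genes, and the adjusted limma p was 0.270, so that Slfn8 did not pass either. Without scaling its processed signal was 260.7, 151 and 246.4 in L1-Tg mice against 115.4, 109.9 and 128.2 in WT mice, still with no overlap. The dimmer Slfn8 probe, which names another transcript of the gene, was well above background on 2 L1-Tg arrays and no WT array. It read -4.19, -4.14 and -4.15 in L1-Tg pools and -4.16, -4.59 and -4.85 in WT pools, where the groups overlapped and no test was made.

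Slfn9, the close relative of Slfn8, showed no such difference. Its brighter probe stood at 2.20, 2.18 and 2.19 in the L1-Tg arrays and at 2.21, 2.53 and 2.32 in the WT arrays. All L1-Tg arrays were below all WT arrays, but the highest L1-Tg value and the lowest WT value differed by only about 0.01, and without scaling the groups overlapped. The difference was -0.16 on the log2 scale (SE 0.11, 95% interval -0.43 to 0.10), with an adjusted limma p of 0.658. The dimmer Slfn9 probe read -0.18, -0.29 and -0.13 in L1-Tg pools and -0.16, -0.18 and -0.02 in WT pools. These groups overlapped, and the difference was -0.08 (SE 0.10, 95% interval -0.32 to 0.16, adjusted limma p of 0.801 in a fit over single probes), and for both Slfn9 probes the upper end of the interval was below the differences of Slfn8 and Slfn2.

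Slfn5, a long member found in the nucleus, was near the detection limit. It stood at -4.17, -3.10 and -3.67 in L1-Tg pools and at -4.03, -4.17 and -3.75 in WT pools, and only WT replicate 3 of the WT arrays was well above background. The groups overlapped from end to end, since L1-Tg replicate 1 was the lowest of all 6 arrays. The difference was 0.33 on the log2 scale (SE 0.28, 95% interval -0.33 to 1.00, adjusted limma p of 0.701), and it turned to -0.17 with normexp background correction.

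Slfn4, known from macrophages and other myeloid cells, was well above background in L1-Tg replicates 1 and 2 and on no other array. It read -4.16, -3.59 and -5.64 in L1-Tg pools and -5.96, -6.40 and -6.35 in WT pools. Every L1-Tg value was above every WT value, but 4 of the 6 were not well above background, and the L1-Tg mean did not exceed the dimmest signals called well above background on the WT arrays, so no fold is given. Slfn1, a growth inhibitor of thymocytes, read -6.47, -6.38 and -4.40 in L1-Tg pools and -5.85, -6.30 and -4.87 in WT pools. Slfn3 read -4.57, -6.42 and -5.03 in L1-Tg pools and -5.47, -5.43 and -6.34 in WT pools. Neither gene was well above background on any of the 6 arrays, and the order of such values carries no information. Of the other Schlafen loci in the mouse, the platelet-lineage and erythroid gene Slfn14 and the gene Slfnl1 on chromosome 4 were likewise well above background on 0 arrays.

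**Figure D1:**
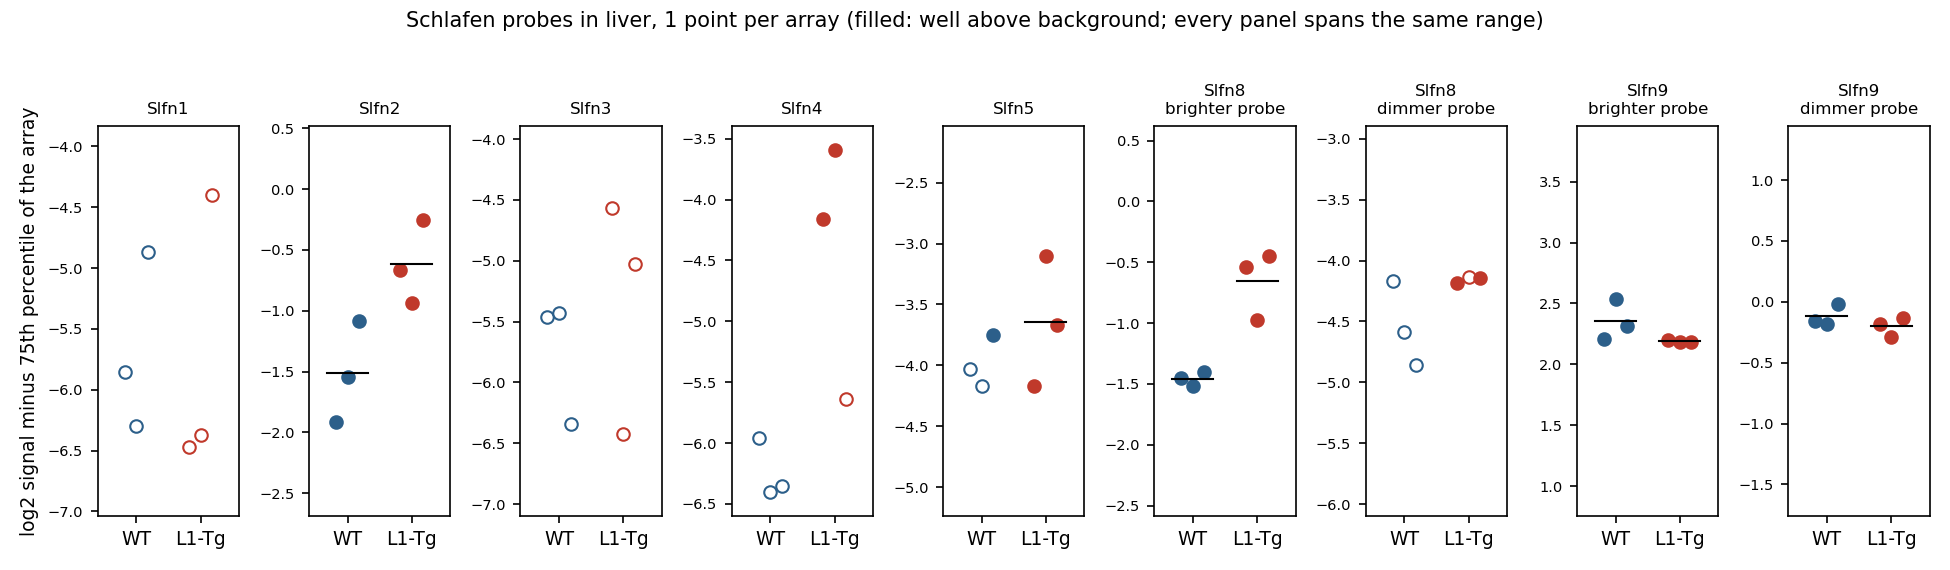
Log2 processed signal minus the 75th percentile of the array (vertical axes, each panel centred on its probe and spanning the same range) for the 9 Schlafen probes in 3 WT and 3 L1-Tg arrays (1 point each; filled, well above background; bar, mean of a group in which all 3 arrays were). Slfn2 and the brighter Slfn8 probe sit higher on all L1-Tg arrays, both Slfn9 probes stay level or slightly lower, and Slfn1 and Slfn3 hold only open points.

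Of the 4 tested Schlafen genes, 0 passed an adjusted limma p of 0.05, against 29 of 22308 genes (0.13%) over the array, 27 of them higher and 2 lower in L1-Tg mice. An unadjusted limma p under 0.05 with a higher level in L1-Tg mice was reached by 2 of the 4, Slfn2 and Slfn8, and by 4.51% of all genes tested. The groups did not overlap, with L1-Tg higher, for the same 2 genes and for 7.22% of all genes, and with L1-Tg lower for 1, Slfn9, and for 8.71% of all genes. The exact permutation test over 3 against 3 arrays cannot give a p below 0.1. The median difference of the 4 genes was 0.57 on the log2 scale and that of all genes tested was -0.03. Because Slfn5 was let in by the L1-Tg arrays alone, neither this median nor these counts bear on the family as a whole.

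The methods of the study called an expression change by a difference index, the difference of the group means over the sum of the group SDs, with a modulus above 0.7 and no filter on dim probes. By this index 3 of the 7 Schlafen genes were above the threshold, namely Slfn2 at 1.15, Slfn4 at 1.17 and Slfn8 at 2.11, beside 8.61% of all 37069 features with an index. Slfn9 was under -0.7 at -0.91, as were 21.7% of all features. Slfn5 at 0.49, Slfn3 at 0.41 and Slfn1 at 0.07 were within the threshold. Slfn4 was not well above background on any WT array, and with at least a 2-fold change required as well, it was the 1 Schlafen gene left past the threshold, while Slfn2 and Slfn8 no longer were. No share over all features is given for this added rule.

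The contrast between neighbouring relatives was measured within each array, where any scaling cancels. The log2 ratio of Slfn8 to Slfn9 was higher by 0.97 in L1-Tg mice, from -2.84 ± 0.27 against -3.81 ± 0.21 in WT mice (SD, n = 3 each). The log2 ratio of Slfn2 to Slfn9 was higher by 1.06, from -2.81 ± 0.34 against -3.87 ± 0.41. With the dimmer Slfn9 probe in their place, the differences were 0.89 and 0.98. In all 4 of these ratios each L1-Tg array was above each WT array, with a two-sided exact permutation p of 0.1, the smallest possible, and 0.183 after Benjamini-Hochberg adjustment over 11 ratios. For the brighter Slfn9 probe this separation was fixed by the values above. Slfn2 and Slfn8 were higher, and Slfn9 lower, on all L1-Tg arrays. Its p is therefore no further evidence, and the pairs were chosen with earlier results of these data known. The ratio of Slfn8 to Slfn2, by contrast, differed by -0.09 with overlapping groups (exact permutation p of 0.8). A ratio within an array shows unequal differences and not that 1 of its genes stayed constant. Whether the probes of the close relatives Slfn8 and Slfn9 share signal was not tested.

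**Figure D2:**
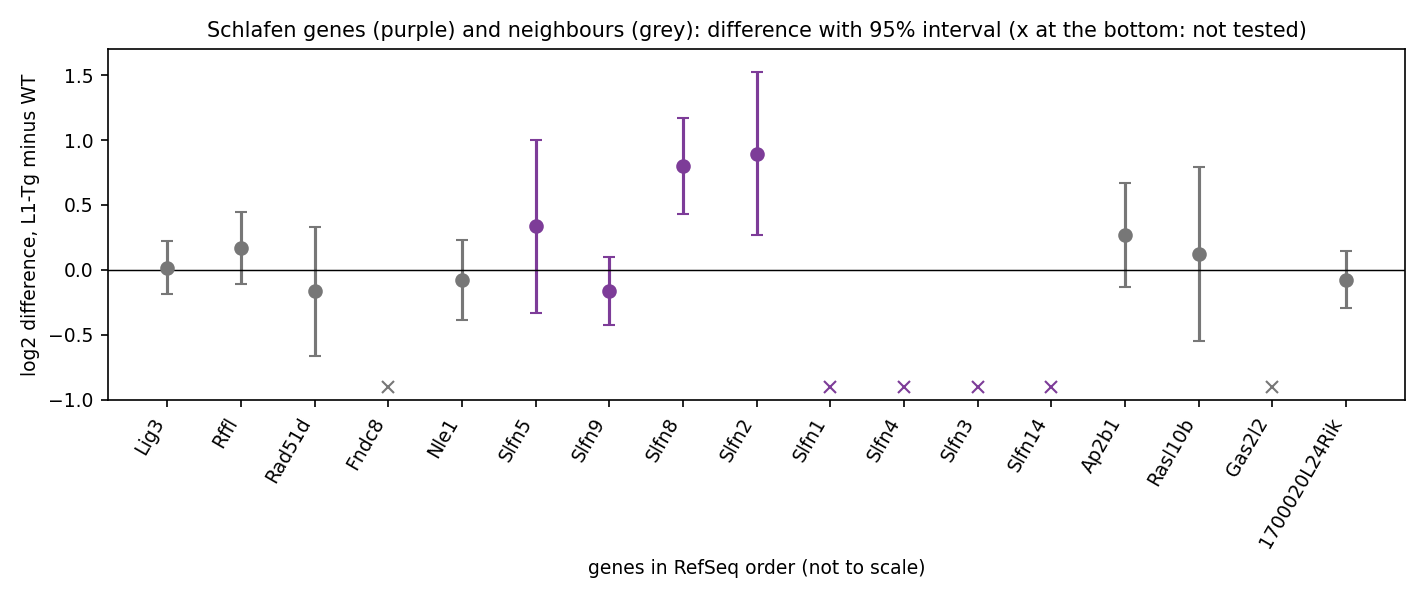
Log2 difference between L1-Tg and WT mice with its 95% interval (vertical axis) for the Schlafen genes (purple) and 9 of the 10 nearest genes of the array (grey), in chromosomal order and not to scale; crosses at the bottom mark genes that were not tested. The intervals of Slfn8 and Slfn2 lie above 0, and those of Slfn9, Slfn5 and the 7 tested neighbours shown include it.

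No gene on either side of the cluster passed the test, and no Schlafen gene did either. Of the 10 nearest genes with a probe, 8 were tested. Of these, 5 stood higher in L1-Tg mice and 3 stood lower, beside 42.9% of all genes tested that stood higher. An adjusted limma p under 0.05 was reached by 0, beside 0.13% of all genes tested. An unadjusted limma p under 0.05 was also reached by 0, beside 4.51% of all genes tested for higher levels alone. With 8 genes, counts of 0 lie near these shares and do not set the neighbours apart from other genes. Their median difference was 0.07 on the log2 scale. The Schlafen genes with the larger differences, Slfn8 and Slfn2, are adjacent to each other among the genes with a probe, with Slfn9 on the other side of Slfn8.

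Interferons signal through paired receptors, JAK kinases and STAT and IRF transcription factors to the genes they induce, and the arrays were read at each of these steps for comparison. Of 5 interferon receptor genes tested, 3 stood higher in L1-Tg mice and 2 stood lower, with an unadjusted limma p under 0.05 for 0 of them. Ifnar1 and Ifnar2, the subunits of the type I receptor, differed by -0.13 and -0.04 on the log2 scale, and Ifngr1 and Ifngr2, those of the type II receptor, by 0.24 and 0.26. Of 12 signaling genes, 8 were higher and 4 lower, with a median difference of 0.15. Leaving out 1 array gave a median of 0.07 without L1-Tg replicate 3, 0.09 without WT replicate 3 and 0.28 without WT replicate 2. The largest differences there were 1.66 for Irf7, which amplifies interferon production, and 1.47 for Usp18, a feedback inhibitor of the type I receptor, with adjusted limma p of 0.536 and 0.198. Jak1, a kinase of the receptors, was lower with groups that did not overlap (difference of -0.21, unadjusted limma p of 0.0405, adjusted limma p of 0.547). In the signaling list the groups did not overlap for 2 genes that were higher and 2 that were lower, Jak1 among them. Among the receptors these counts were 2 and 1, beside 7.22% and 8.71% of all genes tested. Stat2 and Irf9, which are parts of the factor that binds the ISRE, differed by 0.16 and 0.30.

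Among 23 classical interferon-induced genes, all 23 were higher in L1-Tg mice, with groups that did not overlap and an unadjusted limma p under 0.05, beside the 7.22% and 4.51% of all genes given above. However, 0 of them passed after adjustment, the smallest adjusted limma p being 0.178. Their median difference was 1.36 on the log2 scale, with a range from 0.52 to 2.57. The genes with the smallest p were Oasl1 (1.37), Rsad2 (1.90), Cmpk2 (1.56), Ifit2 (1.47) and Ifit1 (2.01), which encode an OAS-like protein, viperin, a mitochondrial nucleotide kinase and members of the RNA-binding IFIT family. Slfn2 at 0.90 and Slfn8 at 0.80 were thus inside the range of this list and below its median, while Slfn5 and Slfn9 were below its lowest value. Oas3 was well above background on 2 WT arrays only and entered the fit through the L1-Tg arrays. This list was drawn up with earlier results of these arrays known and is no independent evidence of a direction.

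Array by array, the interferon-induced genes were also uneven within a genotype. Relative to the mean of the WT arrays, their median stood at -0.48, -0.04 and 0.41 in WT replicates 1 to 3 and at 1.30, 1.20 and 1.65 in L1-Tg replicates 1 to 3. Slfn2 stood at -0.40, -0.03 and 0.43 in the same WT arrays and at 0.85, 0.58 and 1.26 in the same L1-Tg arrays. Both were lowest in WT replicate 1 and highest in WT replicate 3 among WT arrays, and lowest in replicate 2 and highest in replicate 3 among L1-Tg arrays. The median of the general leukocyte genes had the same order, at -0.34, 0.00 and 0.30 in WT replicates 1 to 3 and 0.39, 0.19 and 0.43 in L1-Tg replicates 1 to 3, and that of the Kupffer cell genes had the same order among WT arrays, at -0.39, -0.10 and 0.50. Slfn8 stood at 0.01, -0.06 and 0.05 in WT arrays, without such a spread, and at 0.92, 0.48 and 1.01 in L1-Tg arrays. Slfn9 stood between -0.17 and -0.15 on all L1-Tg arrays. Within arrays the log2 ratio of Slfn2 to the mean of the 23 genes was lower by a difference of -0.50 in L1-Tg mice with no overlap (exact permutation p of 0.1), and that of Slfn8 was lower by a difference of -0.60 with overlap (exact permutation p of 0.2). This mean includes Oas3, which entered the fit through the L1-Tg arrays.

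**Figure D3:**
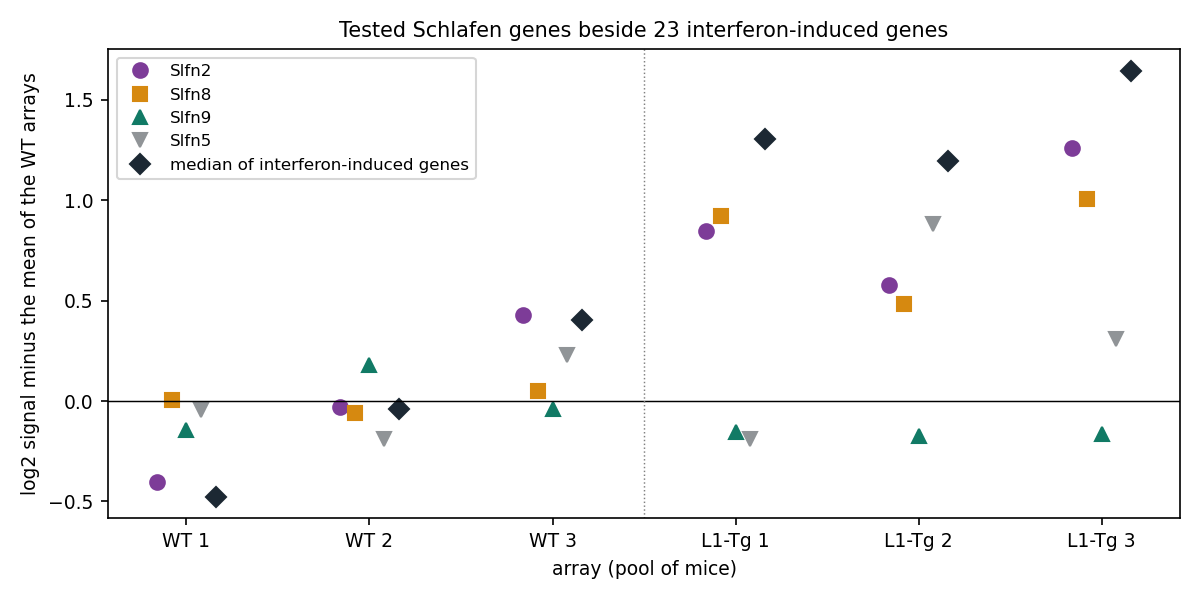
Log2 signal minus the mean of the 3 WT arrays (vertical axis) on each of the 6 arrays (horizontal axis, each a pool of mice) for the 4 tested Schlafen genes and for the median of 23 classical interferon-induced genes. Slfn2 and Slfn8 lie between 0.48 and 1.26 on the L1-Tg arrays, under the interferon-induced median of 1.20 to 1.65, and Slfn9 lies below 0 on all of them.

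Markers of the cell types that liver RNA can hold were read on the same arrays. Counts of higher genes stand beside 42.9% of all genes tested that were higher in L1-Tg mice. All 10 hepatocyte genes, Alb among them, were measured in this liver RNA. Of these, 8 were lower in L1-Tg mice and 2 higher, with a median difference of -0.11 on the log2 scale. Apoa1, an apolipoprotein gene chosen after its values were seen, was lower with groups that did not overlap (difference of -0.49, unadjusted limma p of 0.0305, adjusted limma p of 0.530). All 8 general leukocyte genes were higher in L1-Tg mice, with a median difference of 0.39. An unadjusted limma p under 0.05 was reached by 1, Ptprc (CD45) at 0.50, and with a higher level by 4.51% of all genes tested. The summed level of the 8 genes, in multiples of the 75th percentile, ranged from 30.1 to 34.2 in L1-Tg arrays and from 20.3 to 33.0 in WT arrays. All 7 monocyte genes were higher, with a median difference of 0.64 and an unadjusted limma p under 0.05 for 5, beside 4.51% of all genes tested. F13a1, 1 of these 5, and Ccr2 were well above background on only 2 WT arrays and entered the fit through the L1-Tg arrays alone. The summed level of the list, 78.4% of it from the Plac8 probe, was 5.79 to 9.09 against 2.98 to 4.67. All 11 Kupffer cell and macrophage genes were higher, with a median difference of 0.32, no unadjusted limma p under 0.05 and a sum of 177 to 206 against 113 to 205. The adjusted limma p was above 0.05 for every marker of these lists, the smallest being 0.484 among the monocyte genes.

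Lymphocyte and granulocyte markers were mixed. Several of their tested genes entered the fit only through the L1-Tg arrays, as Slfn5 did, namely Cd8a and Cd3g of the T cell list, Cd79a of the B cell list, Klrd1 and Gzmb of the NK cell list and Mpo and Retnlg of the neutrophil list, so the counts and medians of these lists support no direction. Of 9 tested T cell genes 7 were higher, with a median difference of 0.11, but Cd3e, a defining chain of the T cell receptor complex, was lower by a difference of -0.30, and the summed level was 82.9 to 98.7 in L1-Tg arrays and 91.5 to 228 in WT arrays, 93.3% of it from the Cd4 probe. Cd8b1, which had a flagged spot, was left out of the fit and the sum. Of 7 tested B cell genes 6 were higher, with a median difference of 0.54 and a sum of 5.97 to 6.80 against 4.88 to 5.35. Of 5 tested NK cell genes 3 were higher, with a median difference of 0.09 and a sum of 10.6 to 11.7 against 9.82 to 13.6. Of 7 tested neutrophil genes 5 were higher, with a median difference of 0.54, while the sum, 85.6% of it from the Csf3r probe, was 179 to 198 against 211 to 259. Il7r of the T cell list, Klre1 of the NK cell list and Cxcr2 of the neutrophil list were not well above background on any array. Endothelial genes (5 of 8 higher, median difference 0.07, sum 102 to 104 against 96.7 to 105) and erythroid genes (3 of 3 tested higher, median difference 0.28, sum 97.6 to 201 against 100.3 to 115) also held no gene with an adjusted limma p under 0.05.

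Within each array, the log2 ratio of Slfn2 to the mean of the 8 leukocyte genes was higher by 0.57 in L1-Tg than in WT mice, with no overlap (exact permutation p of 0.1). That of Slfn8 was higher by 0.47, with overlap (exact permutation p of 0.2). For the ratios to the mean of the 7 monocyte genes the differences were 0.25 for Slfn2 and 0.16 for Slfn8, and the groups overlapped (exact permutation p of 0.5 and 0.6). This mean includes F13a1 and Ccr2, which were not well above background in WT replicate 1 and entered through the L1-Tg arrays alone. The ratios to it therefore support no conclusion on monocytes. The part of the cell markers in the Schlafen differences was not tested.

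**Figure D4:**
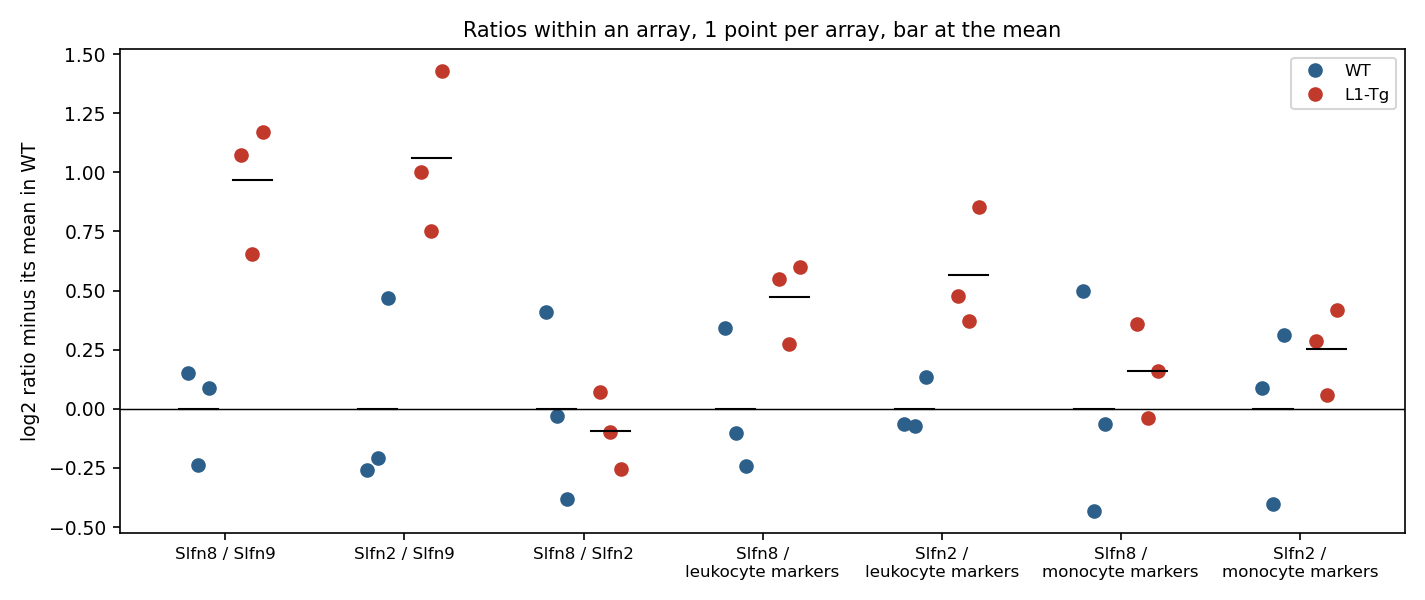
Log2 ratios within an array minus their mean in WT mice (vertical axis; 3 WT and 3 L1-Tg arrays, 1 point each, bar at the mean) for pairs of Schlafen genes and for Slfn8 and Slfn2 over the mean of leukocyte and monocyte markers (horizontal axis). The mean ratios to Slfn9 are higher in L1-Tg mice by 0.97 for Slfn8 and 1.06 for Slfn2, and these groups do not overlap. The mean ratios to leukocyte markers are higher by 0.47 for Slfn8, with overlap, and by 0.57 for Slfn2, without overlap. For the ratios to monocyte markers the groups overlap. The monocyte markers include F13a1 and Ccr2, which entered the fit through the L1-Tg arrays alone.

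The tested members also differed from each other over the 6 arrays, as measured by the root mean square difference of their profiles centred on their own means. Slfn2 and Slfn8 were the closest pair at 0.25 log2 units and Slfn2 and Slfn9 the farthest at 0.61, with the other 4 pairs in between. Among the genes most like the mean of the 4 members over these 6 arrays, after 1 unnamed feature, were Nmi at a distance of 0.04, Ehd4 (0.04), Arhgef2 (0.04), Fbxw17 (0.04), Clcf1 (0.05), Lgals9 (0.06), Klhl6 (0.06), Snrpb2 (0.06) and Faim (0.07). Nmi encodes an interferon-inducible partner of STAT proteins, but neither it nor any other of these genes was in the interferon lists read above. Taken alone, Slfn2 was most like Phf11b (0.05), Shisa5 (0.09) and Naip2 (0.11), whereas Slfn8 was most like Entpd2 (0.09), Col4a1 (0.09) and Snx10 (0.10). These distances were taken over 22308 genes and only 6 arrays, and are a description. The mean of the 4 members includes Slfn5, let in by the L1-Tg arrays alone, and Slfn9, which was lower in L1-Tg mice. The members themselves lay 0.25 to 0.61 apart, so a gene near their mean need not resemble any 1 of them.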

How the data were processed

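Total RNA from livers of male L1-Tg and WT mice, pooled from 2 or 3 mice, was labelled with Cy3 and hybridised to 6 Agilent SurePrint G3 mouse arrays of 62976 spots, 3 per genotype. The deposited values were spot intensities and well-above-background marks that the authors obtained with Agilent Feature Extraction 10.10.1.1, the processed signal being background-subtracted by that software. A deposited matrix held the authors' intensity values of the same arrays, whose scaling constant is not stated, and served as an alternative. Arrays carry no molecule counts, so their number limits the precision. The labels list each array as a separate sample and do not say which mice went into its pool. The methods state 3 independent analyses per group. The p-values measure only the spread between these arrays.

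The log2 processed signal minus the 75th percentile over all spots other than the 3671 control spots was used. These spots held 55681 probes. Of 28685 probes with a RefSeq accession, 27235 were matched to 1 symbol through RefSeq (GRCm38.p6). Spots of a probe were averaged, a gene was its probe with the highest mean, and flagged non-uniform spots were left out. Genes whose probe passed this mark on every array of either group were fitted with limma 3.58.1 (lmFit and eBayes, R 4.3.3), two-sided, with Benjamini-Hochberg adjustment over all genes tested and a threshold of 0.05. The fit was tested on simulated data. Probe, scaling, background, filter and replicate alternatives are described in the closing section. Promoters were aligned globally with biopython 1.88, and protein sequences were not used here.

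The Schlafen members, the gene and marker lists and the comparisons were chosen with earlier results of these data known. All members were named, with the 5 genes of smallest p of the interferon-induced list, selected genes of the other lists, and profiles nearest to the members' mean, with some genes that these rules select not reported here; Cd3e, Stat2, Ifnar2 and Ptprc were named for their roles. The human transgene was not measured here; the probe of mouse Npc1l1 was well above background on 1 L1-Tg and 2 WT arrays and so checks no label. The labels do not say whether same-numbered samples form pairs, but same-numbered arrays lay in the same column of the slide. Correlations of same-numbered deviations from the group means were -0.16, 0.11 and 0.02, which cannot settle the question. A fit with the replicate number as a block is given in the closing section.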

Additional observations from a re-analysis of the deposited data

How the results depend on the processing

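No Schlafen gene had an adjusted limma p under 0.05 under any of 16 alternatives, and 2 or 3 of them had an unadjusted limma p under 0.05. The log2 difference ranged from 0.59 to 1.11 for Slfn2 and from 0.50 to 0.96 for Slfn8 over 17 alternatives each, the lowest with normexp background correction, and from -0.24 to -0.05 for Slfn9. Slfn5 turned from 0.33 to -0.17 with normexp and otherwise stayed between 0.06 and 0.60. Scaling by the array median moved the median difference of all genes tested from -0.03 to 0.08, beside which Slfn2 stood at 1.01, Slfn8 at 0.91 and Slfn9 at -0.05. With normexp the median difference of the tested Schlafen genes dropped to 0.18, from 0.57. The number of Schlafen genes whose groups did not overlap was 1 without any scaling, in place of 3, and the number past the difference index was 1 with an added 2-fold requirement, in place of 4. Leaving out each array in turn gave 3 or 4 genes whose groups did not overlap and 4 or 5 past the index. With 2 arrays left in a group, groups separate more easily than with 3. No share over all genes is given for these alternatives, so their counts cannot be read against the shares of the main setting. With the replicate number as a block, the differences of Slfn2 and Slfn8 were 0.90 and 0.80 with adjusted limma p of 0.349 and 0.329, and 11 genes over the array passed, in place of 29. No Schlafen call changed with the block. The 29 calls over the array fell to 10 without the filter on dim probes and to 19 with probes of a gene averaged, and ranged from 15 to 35 on leaving out each array in turn, 35 being without WT replicate 3. They fell to 0 without moderated variances, where Slfn8 had an adjusted p of 0.488. The log2 ratio difference of Slfn2 to Slfn9 ranged from 0.73 with normexp to 1.29 without WT replicate 3, and that of Slfn8 to Slfn9 from 0.64 with normexp to 1.12 without L1-Tg replicate 2. The fit over single probes and the alternatives for ratios were added after seeing the data. The causes were not tested. Signal over background limited Slfn1, Slfn3, Slfn4, Slfn5 and the dimmer Slfn8 probe, which lay at or near the dimmest signals called well above background.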
